A study of Mus musculus with 16 samples.

Results

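Odorant receptors are the chemoreceptors of the main olfactory epithelium, and a small set of them was also detected in the vomeronasal organ (VNO) libraries described here. A gene was taken as expressed when its symbol was Olfr followed by a number and at least 10 reads were counted in at least 8 of the 16 libraries. This rule found 29 of 1107 Olfr genes (2.62%), among 24407 genes with counts. Of the other Olfr genes, 444 had a count of 0 in every library and 634 had some reads but too few to pass. The 29 genes were chosen by their counts, so that they are detected is not a result, and their levels are given as a description.

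The VNOs came from mice of a selective breeding experiment on voluntary wheel running, which began with outbred Hsd:ICR mice. In the High Runner (HR) lines 3, 6, 7 and 8 the mice that ran most were bred, and in the Control lines 1, 2, 4 and 5 the breeders were picked at random. Mice of generation 88 were used at 12 weeks of age. For each line and sex, the VNOs of 3 mice were pooled into 1 library, which gave 4 libraries for each linetype and sex, so individual mice cannot be separated and the male and female library of a line are the only repeats of that line.

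Odorant receptors are G protein-coupled receptors, and in the main olfactory epithelium each neuron expresses 1 of them and signals through the G protein subunit Gnal, adenylyl cyclase Adcy3 and the channel subunit Cnga2. The neurons of the VNO instead express receptors of the Vmn1r family together with Gnai2, receptors of the Vmn2r family together with Gnao1, or formyl peptide receptors (Fpr). Odorant receptor genes fall into class I, which lie together on mouse chromosome 7 and resemble the receptors of fish, and class II, which lie in many clusters. A minority of VNO neurons is known to express an odorant receptor, and Olfr692 is known from such neurons that respond to pup odors.

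Most odorant receptors share a stretch at the end of the third transmembrane helix that couples the receptor to its G protein. A pattern of 12 fixed letters within 20 bases of this stretch was searched in frame on the coding strand of GENCODE vM21 transcripts (GRCm38). The fixed letters are the capitals in the sequence of Olfr78, which matches all of them, and any letter was accepted between them. The pattern stood in 681 of 1103 Olfr genes (61.74%), in 0 of 333 Vmn1r and Vmn2r genes and in 11 of 20970 other protein coding genes (0.05%). Among the 29 expressed genes, 16 matched all fixed letters, 8 differed at 1 letter, 3 at 2 letters, and Olfr692 and Olfr1357 at 4 letters each. Only 10 of 1102 Olfr genes (0.91%) differed at 4 letters or more. The stretches below are shown because they set the 2 divergent genes beside those most named in the results, with fixed letters that match in capitals.
Olfr692 (chr7:105368721-105368749, + strand): atggcctgtGAtcGggctgTgGCagTggG
Olfr1357 (chr10:78612260-78612288, - strand): atggccattGAcaGgctggTgGCcATtgc
Olfr691 (chr7:105337329-105337357, - strand): atggcctttGAccGcTttaTaGCcATcTG
Olfr78 (chr7:102742625-102742653, - strand): atggcctttGAccGgTAcgTgGCtATcTG
Olfr1512 (chr14:52372669-52372697, - strand): atggcctatGAcaGgTAccTgGCcATaTG
Olfr1339 (chr4:118734891-118734919, + strand): atggcctatGAtaGaTAtgTaGCcATtTG
Olfr920 (chr9:38756041-38756069, + strand): atggcctatGAtcGtTAtgTgGCtATcTG
All lie in coding exons of the named gene. Olfr692, the gene with the highest mean level of the 29, had fewer of the shared letters than its neighbor Olfr691, which differed at 1 letter. Letters that differ are a description of the reference genome and were not set against any readout.

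The 29 genes lay in 17 of the 49 clusters of Olfr genes in the genome, with a gap of more than 1 Mb taken as the end of a cluster. The class I cluster on chromosome 7 held 6 of them, namely Olfr556, Olfr558, Olfr78, Olfr655, Olfr691 and Olfr692. This was 20.69% of the expressed genes, beside 11.31% of all Olfr genes with a position. A second cluster on chromosome 7 held Olfr293, Olfr301, Olfr308 and Olfr310 among 15 Olfr genes, and Olfr460 and Olfr461 formed a cluster of 2 genes on chromosome 6. Olfr692 is a gene of 1 exon at chr7:105368230-105369355 on the + strand.

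The libraries held 15998552 to 70875276 reads on genes, and values are given as CPM (reads of a gene relative to all reads on genes in the library) after scaling of the library sizes. The markers of VNO neurons were abundant. Omp, the olfactory marker protein of mature sensory neurons, ranged from 1267 to 2596 CPM, and Gnai2 and Gnao1 had Control line means of 1131 ± 214.0 and 406.2 ± 47.2 CPM (SD, n = 4 lines). Trpc2, the channel that defines VNO neurons, was at 259.3 to 417.3 RPKM in all libraries but listed at 0 in the count tables, so a 0 in the count tables does not always mean that no RNA was sequenced. Of 439 Olfr genes with a count of 0 throughout and an RPKM value, 10 had an RPKM above 0, at most 0.0361 in the mean. Among genes of main olfactory neurons, Cnga2 was at 0 to 1.36 CPM in 14 libraries. It was at 5.20 CPM in the male library of Control line 5 and 3.66 CPM in the male library of HR line 3. Stoml3 (7.56 and 5.06 CPM) and Gnal (18.5 and 14.8 CPM) were also highest there. The other genes listed for these neurons were not raised there. Adcy3, for example, was at 67.5 and 62.5 CPM, within the 44.1 to 74.2 CPM of the other libraries. Each of these genes was at 5.55 CPM or more in every library, also where Cnga2 was near 0. A small rise in them could therefore not be seen. In the same 2 libraries the Olfr genes that did not pass the rule summed to 25.6 and 25.2 CPM, above the 9.31 to 17.6 CPM of the others. The expressed genes without Olfr692 summed there to 19.9 and 24.3 CPM, within the 12.5 to 24.7 CPM of the others. None of the 29 genes had over 50% of its summed CPM in these 2 libraries (median 12.4%, highest 41.4% in Olfr691). Of 52 Olfr genes that did not pass the rule but had at least 50 reads, the median was 10.8%, and 3 were above 50%. An equal share of 2 of the 16 libraries would be 12.5%. The rule asks for 10 reads in 8 libraries, so it tends to keep out genes with reads mainly in 2. The comparison of these shares was thus partly fixed by the rule. A part of main olfactory tissue in the levels of the 29 genes was not tested. The female libraries of Control line 5 and HR line 3 were set apart by Gng13, a subunit of the G protein, with 2.30 and 1.51 CPM against 20.5 to 53.7 CPM in the others. The test of lines is therefore given with and without these 4 libraries. The test of linetype is given with all libraries, without the 2 male ones and without the 2 female ones, but not without all 4. In such bulk RNA, fewer cells of a type and less RNA per cell cannot be told apart.

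Olfr692 stood apart from all other odorant receptors in mean level. On the scale of RPKM, which divides by gene length as well as library size and so allows levels of different genes to be compared, its mean over libraries was 32.3 RPKM, 16.8-fold that of the next gene, Olfr1512 (1.92 RPKM). Olfr78, a receptor for short-chain fatty acids and lactate that is best known from the carotid body and kidney, had 1.78 RPKM. Olfr125 (1.14 RPKM), Olfr745 (1.09 RPKM) and Olfr310 (1.02 RPKM) were the other genes above 1 RPKM. They were followed by Olfr301 (0.885 RPKM), Olfr1357 (0.845 RPKM), Olfr464 (0.694 RPKM) and Olfr968 (0.621 RPKM). In all, 21 genes had between 0.1 and 1 RPKM, and Olfr290 (0.0657 RPKM) and Olfr1420 (0.0464 RPKM) were lower. The RPKM tables of the 2 sexes were normalized separately by the authors, so these means serve only to order the genes. In 22 genes, the length implied by RPKM and counts was within 20% of the coding length, while it was over 2 times that length in 6 genes, namely Olfr920, Olfr78, Olfr77, Olfr558, Olfr290 and Olfr1420, where it was 8321 bases against 927 coding bases. The RPKM of these 6 genes are low for their reads. By CPM, which does not divide by length, Olfr78 came second with a mean of 4.44 CPM, and Olfr692, with 28.8 CPM, was 6.5-fold higher. These leads are of means and did not hold in every library. In the male libraries of Control line 2 and HR line 7, Olfr692 was below Olfr1512 (1.85 against 2.92 and 2.54 against 2.70 RPKM). In the female libraries of these lines it was above Olfr1512 (2.58 against 1.34 and 3.35 against 2.54 RPKM).

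Vomeronasal receptors were far more abundant. The same count rule was passed by 156 of 211 Vmn1r genes (73.9%), 119 of 126 Vmn2r genes (94.4%) and 5 of 6 Fpr genes, and by 0 of 15 Taar genes, the trace amine receptors of the main olfactory epithelium. The median level of the 280 vomeronasal receptors that passed was 11.2 RPKM, against 0.481 RPKM for the 29 odorant receptors. The vomeronasal receptors were taken by the start of the symbol and include pseudogenes such as Vmn1r-ps103 (0.666 RPKM), unlike the stricter rule for Olfr symbols. Olfr692 was the only odorant receptor above that median, and it was as high as or higher than 233 of the 280 vomeronasal receptors (83.2%). Olfr1512, the next odorant receptor, was as high as or higher than 44 of them (15.7%). The 29 genes together amounted to 0.289% to 1.75% of the summed RPKM of the vomeronasal receptors per library (median 0.930%), and to 0.311% in the median without Olfr692. Olfr692 itself made up between 10.2% of the summed RPKM of the 29 genes in the male library of HR line 7 and 88.4% in the female library of HR line 6.

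**Figure D1:**
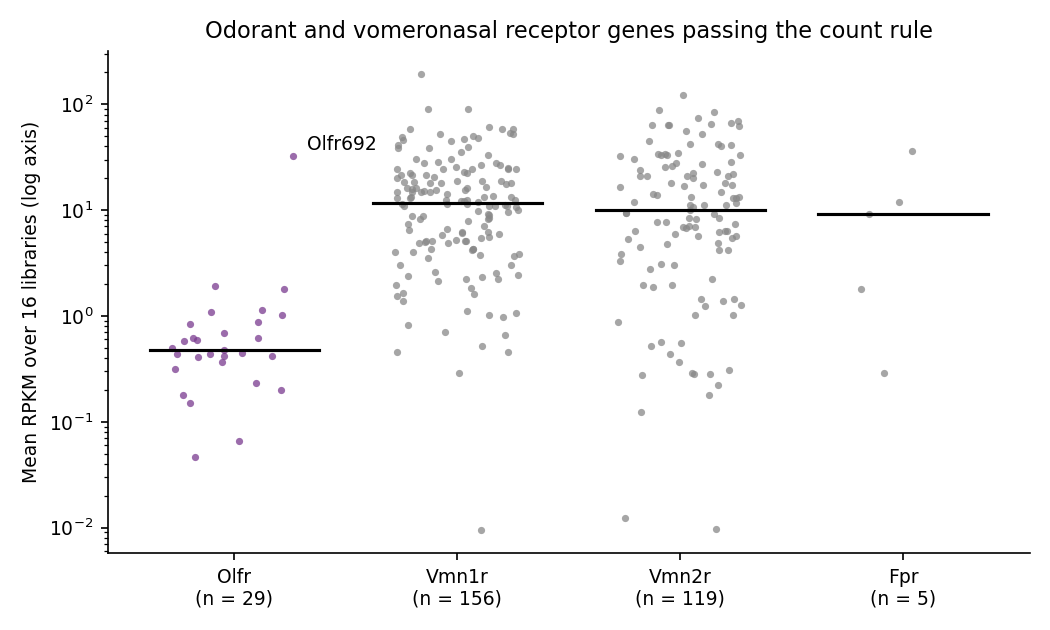
Each point is the mean RPKM of 1 gene over 16 libraries, on a log axis, for the odorant receptors and the vomeronasal receptor genes that passed the same count rule; black bars are medians, and 1 vomeronasal receptor listed at 0 RPKM is not drawn. Olfr692 at 32.3 RPKM sits among the vomeronasal receptors, and the other odorant receptors lie at 1.92 RPKM or lower.

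Of the receptors with a textbook ligand or tissue, 3 of 14 listed were expressed by this rule, namely Olfr692, Olfr78 and Olfr558, a short-chain fatty acid receptor that lies close to Olfr78. Olfr558 had 5 to 27 reads per library and a mean of 0.149 RPKM. The counts of 5 others on the list, among them Olfr73, Olfr151 and Olfr160, receptors used as models of the main olfactory epithelium, were 0 in every library. With library sizes as given, a count of 0 allows up to 0.0423 to 0.188 CPM (3 counts, counting error only). This limit does not hold for a gene listed at 0 although it was sequenced, as Trpc2 was. At the limit of the rule, Olfr1339, Olfr164, Olfr556, Olfr691 and Olfr920 had 10 reads in exactly 8 libraries, with 198 to 290 reads in total. Olfr30, Olfr50, Olfr57, Olfr622 and Olfr736 had 10 reads in 7 libraries, with 111 to 236 reads in total, and were left out.

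The line from which a library came was compared next, since replicate lines of one linetype share the breeding regime but not their genetic drift. The 4 lines of each linetype were tested against each other with the 2 sexes as repeats (edgeR's quasi-likelihood F test, Benjamini-Hochberg adjusted over 17181 genes). Of all genes, 27.7% differed among the lines, and 12 of the 29 odorant receptors (41.4%) did. Among the vomeronasal receptors, 199 of 280 (71.1%) differed among the lines in this test. The male and female libraries of a line deviated together from the means of their groups, with correlations over the 29 genes of 0.438 to 0.827 in the 8 lines. The plot of the 29 genes by line and sex shows these deviations.

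**Figure D2:**
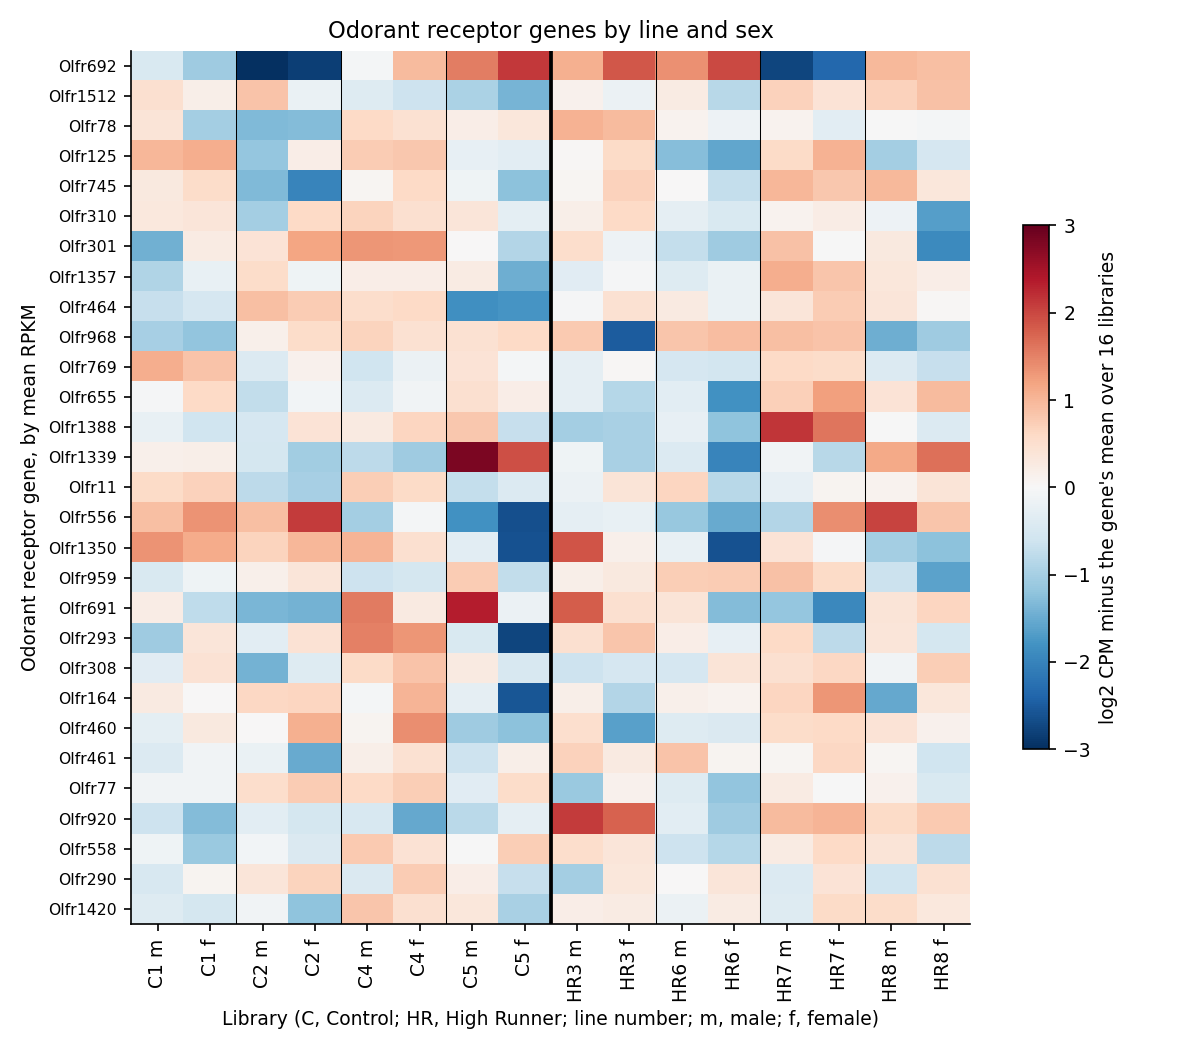
Each row is 1 odorant receptor gene, ordered by mean RPKM, and each column 1 library; color gives log2 CPM minus the mean of that gene over 16 libraries, with the scale ending at 3 in both directions. Olfr692 is blue in both sexes of Control line 2 and HR line 7, and Olfr920 is red in HR lines 3, 7 and 8.

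Olfr692 differed most among the lines of all 29 genes (F = 58.0, edgeR adjusted p = 5.68e-05), and 60 of the 17181 genes tested, 15 of them vomeronasal receptors, had a smaller p. In Control lines, the male and female libraries held 12 and 7.77 CPM in line 1, 1.71 and 2.27 CPM in line 2, 15.9 and 31.8 CPM in line 4, and 47.8 and 71.4 CPM in line 5. In HR lines they held 34.8 and 59.7 CPM in line 3, 42.9 and 64.6 CPM in line 6, 2.38 and 3.16 CPM in line 7, and 32.3 and 30.8 CPM in line 8. Control line 2 and HR line 7, 1 line of each linetype, were thus low in both sexes, at 1.71 to 3.16 CPM, and did not overlap with the other 12 libraries, at 7.77 to 71.4 CPM. The highest line mean, in Control line 5, was 29.9-fold that of Control line 2. The lines differed by an SD of 1.92 on the log2 scale, and the sexes within a line by an SD of 0.43. The low libraries still held 44 to 150 reads of Olfr692, so the gene was detected in all of them.

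Olfr691, which lies 26 kb from Olfr692 on the opposite strand, also differed among the lines (edgeR adjusted p = 0.00981). Control line 2 and HR line 7 were its lowest lines, at 0.0211 to 0.0730 CPM, which is 1 to 3 reads per library, and the other 12 libraries lay at 0.0596 to 1.34 CPM. The overlap came from the female library of HR line 6, with 2 reads. Unlike Olfr692, Olfr691 was higher in the male than in the female library in 7 of 8 lines. In Control line 2 and HR line 7 this rests on 3 reads against 1. Its 2 highest libraries were the male libraries of Control line 5 (1.34 CPM) and HR line 3 (0.922 CPM), those with the most Cnga2. Olfr690, next to both and too low to pass the rule, had at most 1 read in each of the 4 libraries of these 2 lines and up to 10 in the others.

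Other class I genes of the same cluster differed from Olfr692 in the order of lines. Olfr556 (edgeR adjusted p = 0.0249) had its highest line mean, 0.914 CPM, in Control line 2, where Olfr692 was lowest, and its lowest, 0.0197 CPM, in Control line 5, where Olfr692 was highest. In Control line 5 it had 1 read in the male and 0 reads in the female library. Olfr655 had its highest line mean, 0.925 CPM, in HR line 7 and did not pass the test (edgeR adjusted p = 0.0703). Olfr78 differed among the lines (edgeR adjusted p = 0.0133) and was highest in HR line 3, with 8.27 CPM in the male and 7.78 CPM in the female library, above all others, at 1.57 to 6.08 CPM. Its lowest line was Control line 2, as in Olfr692, with 1.57 and 1.60 CPM, while HR line 7 held 4.33 and 3.22 CPM. Olfr78 shares 926 exon bases with Olfr560 on the same strand, so reads from the 2 genes may be split or left uncounted as ambiguous. The male library of HR line 3 is among the 2 with the most Cnga2, and the female library had 0.110 CPM of Cnga2 and nearly the same Olfr78 level. That female library is itself set apart by Gng13 (1.51 CPM). A part of main olfactory tissue in the level of Olfr78 was not tested.

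**Figure D3:**
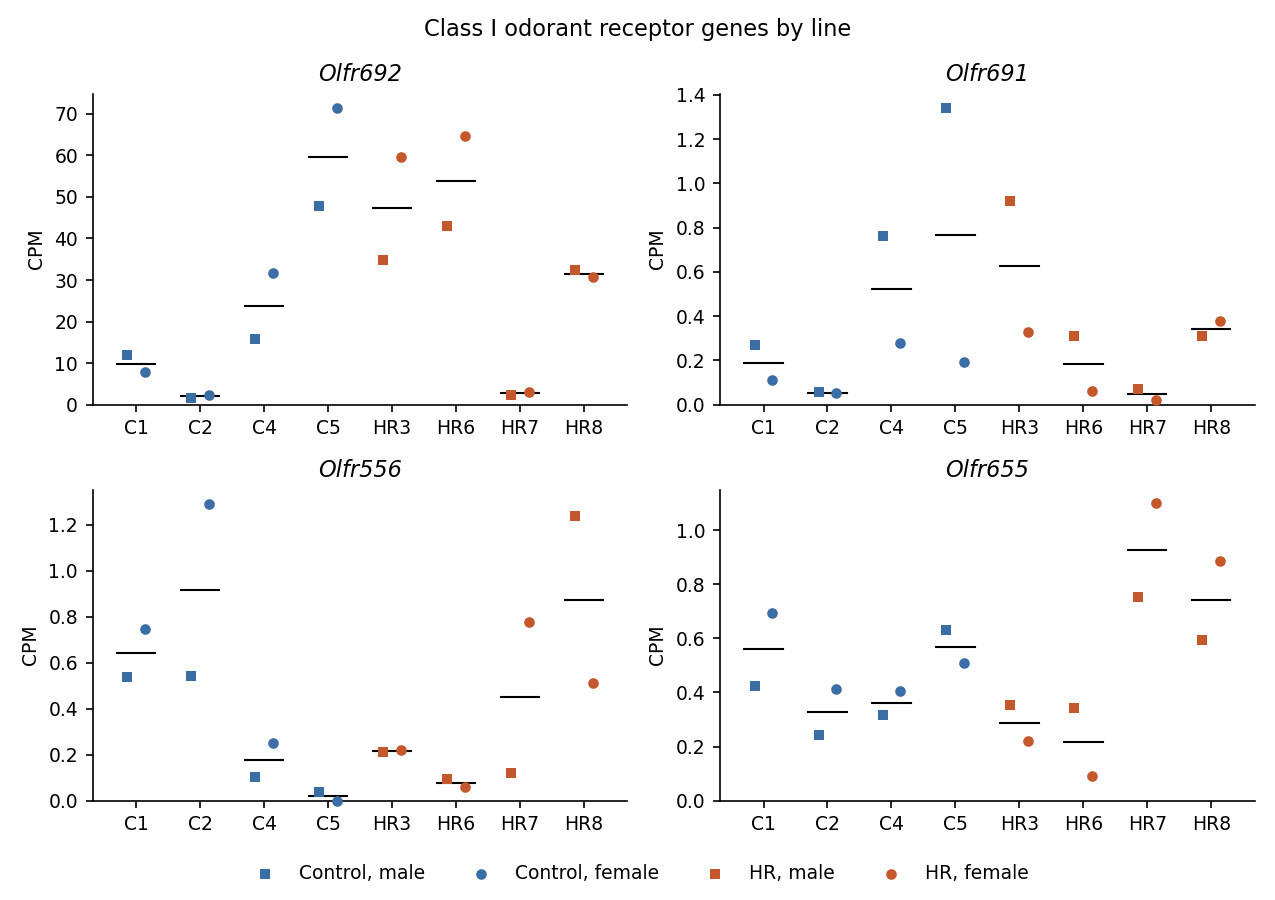
CPM of 4 class I odorant receptor genes in each of the 8 lines (C, Control); squares are male libraries, circles are female libraries, and black bars are the mean of the 2. Olfr692 and Olfr691 are lowest in Control line 2 and HR line 7, where Olfr692 lies at 1.71 to 3.16 CPM, while Olfr556 has its highest mean, 0.914 CPM, in Control line 2.

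Class II genes showed further line patterns. Olfr1339 (edgeR adjusted p = 0.00199) was highest in Control line 5, with 2.21 and 1.15 CPM in the male and female library, followed by HR line 8 with 0.647 and 0.942 CPM. In the other 12 libraries Olfr1339 lay at 0.0298 to 0.305 CPM. It was the gene with the largest share of its summed CPM in 1 line, 48.0%, so no gene reached 50%. Olfr1388 (edgeR adjusted p = 0.00935) was high in HR line 7, with 1.68 and 1.14 CPM, and at 0.119 to 0.630 CPM elsewhere, and 83.2% of its 75-nucleotide words occur in the transcripts of no other gene, against a median of 99.73% over the 29 genes. Olfr464 (edgeR adjusted p = 0.00666) was low in Control line 5, with 3 and 2 reads (0.118 and 0.128 CPM), against 0.326 to 1.08 CPM in the other lines. Olfr125 (edgeR adjusted p = 0.00601) had line means from 0.305 CPM in HR line 6 to 1.89 CPM in Control line 1.

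The remaining genes past the threshold were Olfr1512, Olfr769, Olfr920 and Olfr745, with edgeR adjusted p = 0.0187, 0.0202, 0.0223 and 0.0327. Olfr1512 had its highest line mean in HR line 8 (2.50 CPM) and its lowest in Control line 5 (0.610 CPM). Olfr745 was lowest in both libraries of Control line 2, at 0.354 and 0.206 CPM. In 9 of the 29 genes both libraries of the highest line lay above all others, beside 15.1% of all genes tested. Without Control line 5 and HR line 3, the lines that hold the 4 libraries that stood apart, 11 of the 29 genes passed, 9 of them among the 12 named, without Olfr556, Olfr920 and Olfr1512. Over all genes, 3964 of 16977 passed in that fit. With each line left out in turn, 6 of the 12 genes passed every time, namely Olfr692, Olfr1339, Olfr125, Olfr464, Olfr691 and Olfr556. The call was lost for Olfr78 without Control line 2, for Olfr1512 without Control line 5 and for Olfr1388 without HR line 7. It was lost for Olfr769 without Control line 1 or HR line 7, for Olfr920 without HR line 3 or 6, and for Olfr745 without Control line 2, HR line 6 or HR line 7. Reads with a mismatch to the reference genome were not aligned, so an allele that differs from the reference can lower a count in a line, and this and a lower transcript level cannot be told apart in these tables.

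**Figure D4:**
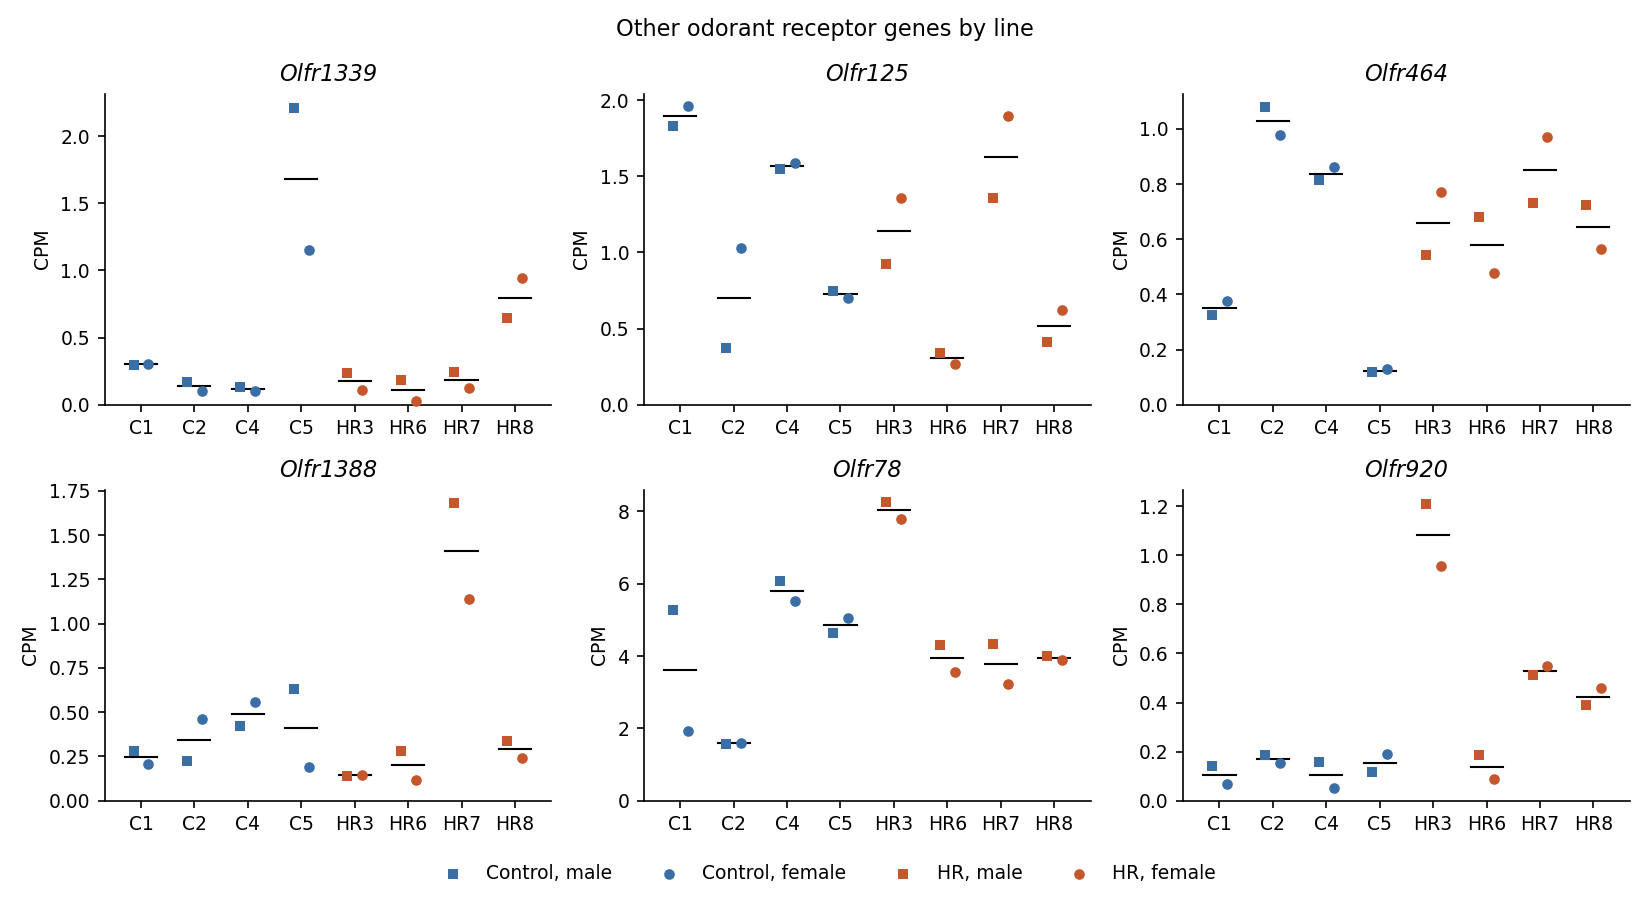
CPM of 6 further odorant receptor genes in each of the 8 lines, drawn as squares for male and circles for female libraries with the mean of the 2 as a bar. Olfr1339 is high in Control line 5 and HR line 8, Olfr1388 in HR line 7 and Olfr78 in HR line 3, and Olfr920 stays at or below 0.191 CPM in all Control lines and in HR line 6.

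To examine whether selective breeding for running went with odorant receptor expression, HR libraries were compared with Control libraries, with sex in the model. No odorant receptor passed the threshold (0 of 29, edgeR adjusted p, smallest 0.261), and 4 of 16507 genes did (0.0242%). At an unadjusted p under 0.05 there were 2 of the 29 genes, beside 3.30% of all genes, and DESeq2 called 1 of the 29 genes and 0.182% of all genes. Without the 2 male or without the 2 female libraries that stood apart, edgeR called 0 of the 29 genes. The median log2 fold change was 0.00 over the 29 genes and 0.00 over all genes, with 14 genes higher and 15 lower in HR. In all 29 genes the HR and Control libraries overlapped in CPM, as they did in all but 13 of the 16507 genes (0.0788%). Of the 280 vomeronasal receptors, edgeR called 0 and DESeq2 7, with 30 at an unadjusted edgeR p under 0.05, and 12 of the 29 odorant receptors differed among lines within linetype, as given above.

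Olfr920 had the smallest p, with a log2 fold change of 2.08 ± 0.46 (SE, 8 libraries against 8, edgeR adjusted p = 0.261). Its Control libraries lay at 0.0506 to 0.191 CPM with a median of 0.148 CPM, which is 2 to 10 reads each. Among HR lines, the male and female libraries held 1.21 and 0.955 CPM in line 3, 0.186 and 0.0894 CPM in line 6, 0.511 and 0.548 CPM in line 7, and 0.388 and 0.458 CPM in line 8. HR lines 3, 7 and 8 were above every Control library, and HR line 6 was within the Control range. DESeq2 called it (adjusted p = 0.0297), and so did edgeR without HR line 6 (adjusted p = 0.0449). When the 2 libraries of each line were summed, which leaves 4 lines against 4 as the independent units, the log2 fold change was 2.05 and the edgeR adjusted p = 1. Without the male libraries of Control line 5 and HR line 3 the log2 fold change was 1.75. The gene passed the count rule through 6 HR and 2 Control libraries, so it was taken in mainly through the group where it was higher. Its call between HR and Control depends on the method and on HR line 6.

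Olfr77, a class II gene, followed with a log2 fold change of -0.66 ± 0.28 (SE, edgeR adjusted p = 1). Its lowest, median and highest libraries held 0.355, 0.696 and 0.824 CPM in Control lines and 0.179, 0.402 and 0.560 CPM in HR lines, and the ranges overlapped. The next were Olfr461, with a log2 fold change of 0.51 ± 0.29 (SE), Olfr745, with 0.62 ± 0.37, and Olfr301, with -0.68 ± 0.47, none past the threshold. The value of Olfr301 was -0.02 in males alone and -1.39 in females alone, and -0.26 without Control line 4. That of Olfr461 was 0.76 in males alone and 0.24 in females alone, and that of Olfr745 was 0.33 without Control line 2. Olfr692 had a line mean of 23.8 ± 25.5 CPM in Control and 33.8 ± 22.7 CPM in HR (SD, n = 4 lines each). Between linetypes it differed by 0.52 ± 0.75 on the log2 scale (SE, edgeR adjusted p = 1), and each linetype held 1 low line. It ranged from 0.14 without Control line 2 to 1.5 without Control line 5. Olfr78 had 3.96 ± 1.82 CPM in Control and 4.92 ± 2.07 CPM in HR (SD, n = 4 lines each). The log2 difference between the linetypes was 0.32 ± 0.32 (SE), and -0.02 without HR line 3.

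**Figure D5:**
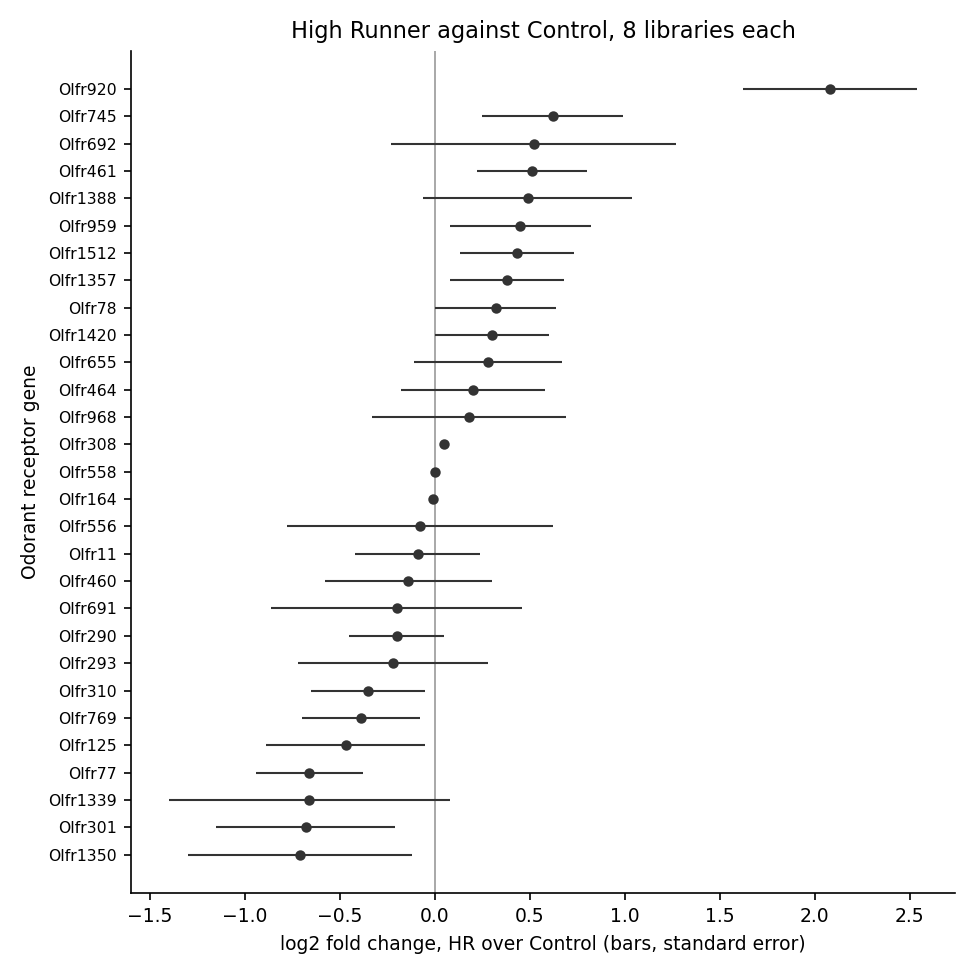
Log2 fold change of HR over Control for the 29 odorant receptor genes, with bars for the standard error (none is drawn for Olfr164, Olfr308 and Olfr558, whose change is close to 0). Olfr920 stands alone at 2.08, and all other genes lie between -0.71 and 0.62.

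The genes that odorant receptor neurons use were examined from lists of transduction, receptor export and receptor choice. Of 15 transduction genes tested, 0 were higher and 0 lower in HR (edgeR adjusted p, 0 at an unadjusted p under 0.05), with a median log2 fold change of 0.01. The same held for 3 export genes, Rtp1, Rtp2 and Reep1, and for 15 choice genes such as Lhx2, Ldb1 and Emx2, whose medians were 0.01 and 0.00, and DESeq2 also called 0 genes of the 3 lists. Among lines within linetype, 7 of the transduction genes, 2 of the export genes and 6 of the choice genes differed, beside the 27.7% of all genes. The list of main olfactory neurons, which includes Adcy3 and Rtp1, summed to 3036 to 6158 CPM in Control and 3836 to 6195 CPM in HR libraries, far above the level of Cnga2. Most of this sum came from Gfy, at 1600 to 4206 CPM over the libraries, so the sum mainly gives the level of Gfy. Cnga2 had a log2 fold change of 0.46 ± 0.97 (SE, edgeR adjusted p = 1).

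The markers of other cells that the dissected tissue could hold were compared in the same way. Of the lists for VNO neurons, main olfactory neurons and sustentacular cells, respiratory epithelium, guanylyl cyclase neurons, immune cells, endothelium and erythroid cells, 0 of the 41 genes tested passed the threshold between HR and Control by edgeR or DESeq2, with 2 at an unadjusted edgeR p under 0.05. The summed CPM of the sustentacular list ranged from 103.9 to 534.3 in Control and from 156.2 to 874.9 in HR libraries, most of it from Cyp2a5 (99.2 to 863.3 CPM). Cyp2g1, at 2.80 to 10.3 CPM in 14 libraries, and Ugt2a1, at 0.112 to 4.71 CPM, were higher in the male libraries of Control line 5 (38.5 and 18.6 CPM) and HR line 3 (35.6 and 15.4 CPM), as was Cnga2. Cyp1a2 (8.35 and 6.05 CPM) and Ermn (1.10 and 1.02 CPM) of the same list were also highest in these 2 libraries. Cyp2a5 was not raised there, at 310.4 and 324.9 CPM, within the range of the other 14. The immune list ranged from 41.3 to 254.7 CPM in Control and from 40.3 to 440.2 CPM in HR libraries, and the part of these cells in the values above was not tested.

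The sexes were compared with linetype in the model, to see whether odorant receptors differ between males and females. No odorant receptor passed the threshold (0 of 29 by edgeR and 0 by DESeq2), and 31 of 16507 genes did (0.188%). At an unadjusted p under 0.05 there were 2 of the 29 genes, beside 8.08% of all genes. Olfr290 had a log2 fold change of 0.71 ± 0.25 (SE, female over male, edgeR adjusted p = 0.437), but 948 of its exon bases are shared with a second entry of the same name, so its counts are uncertain. Olfr691 had -1.45 ± 0.66 (SE, edgeR adjusted p = 0.596) and Olfr308 0.53 ± 0.35 (SE, edgeR adjusted p = 0.763). The highest Olfr691 libraries were the male libraries of Control line 5 (1.34 CPM) and HR line 3 (0.922 CPM), which stood apart by Cnga2. Olfr692 was higher in the female library in 6 of 8 lines. The libraries of 1 sex may have shared a sequencing run, so sex and run cannot be told apart.

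The interaction of sex and linetype asks whether HR and Control lines differ by another amount in males than in females. It passed the threshold in 0 of 29 odorant receptors and 0 of 16757 genes (edgeR and DESeq2), with 77 genes and 0 odorant receptors at an unadjusted edgeR p under 0.05. The smallest p among the 29 genes was that of Olfr460, with an interaction of -1.56 ± 0.82 on the log2 scale (SE, edgeR adjusted p = 1). Olfr460 had 1 to 26 reads per library.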

How the data were processed

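Total RNA from VNOs of 3 mice per pool was depleted of ribosomal RNA and made into directional libraries, which were sequenced from 1 end over 75 nucleotides. STAR 2.6.1d was used by the authors to place reads on GRCm38, accepting 0 mismatches and 1 location per read, so reads over an allele that differs from the reference, or shared by near-identical receptor genes, were dropped. The deposited count tables hold whole reads per gene without normalization, and the counting tool, annotation and use of strand are not given in the sources used here. The deposited RPKM tables hold values the authors computed with Cufflinks, 1 table per sex, each normalized on its own. In the male count table, 4 summary entries were left out (34.9% to 37.3% of the table's reads per library). They count reads that were unmapped, had several locations, lay off genes or were ambiguous between genes. Also left out were 4 entries with repeated names in each table. Male columns were matched to lines by the names in brackets in the sample titles. Depth was 15998552 to 70875276 reads on genes per library, and intervals and limits on counts cover counting error only.

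The count models were fitted by edgeR 4.0.16 in R 4.3.3 (TMM scaling, filterByExpr at a minimum count of 10, quasi-likelihood test, Benjamini-Hochberg adjustment over all genes, threshold 0.05), and all 29 genes passed this filter. Standard errors are the log2 fold change divided by the root of F. The models held sex and linetype, their interaction, or line within linetype and sex. The 2 libraries of a line entered the linetype model as separate samples, although the line is the unit of selection, so these p may be too small, and the fit on counts summed per line treats lines as units. DESeq2 1.42.0 and limma 3.58.1 served as alternatives, and tables and figures were made with Python 3.11.15. Positions and sequences came from GENCODE vM21. The edgeR tests of linetype, line and sex were checked on simulated counts. These were drawn independently for each library, so the check does not cover libraries of a line that deviate together. The male and female libraries of a line deviated together (correlations of 0.321 to 0.708 over all genes in the 8 lines), so the line number pairs the sexes, and fits with line as a block were made for sex and interaction.

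The 29 genes, the gene lists and the libraries left out were chosen with earlier results of these data known. The genes named are the 10 with the highest RPKM, those with the smallest p in each comparison, receptors of the textbook list and those at the limit of the rule. Olfr691, Olfr556, Olfr655 and Olfr690 were described as neighbors of Olfr692, and the remaining genes past the threshold in the line test were named after their values were seen.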

Additional observations from a re-analysis of the deposited data

Results flagged for a closer look

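In groups of 4 libraries of 1 linetype and sex, a library was singled out when its gap to the nearest other library exceeded Dixon's limit as a share of the range of log2 CPM. Over 116 groups, the 29 genes in 4 groups each, 6 were singled out, and chance alone gives about 1 in 20 groups. Olfr692 in HR males was singled out by HR line 7 (2.38 CPM against 32.3 CPM in the nearest library, a share of 0.902). Olfr78 in HR males was singled out by HR line 3 (8.27 against 4.33 CPM, a share of 0.887). Olfr968 was singled out by HR line 8 in HR males (0.129 against 0.804 CPM, 5 reads, a share of 0.951) and by Control line 1 in Control females (0.167 against 0.633 CPM, a share of 0.923). Olfr558 in Control males was singled out by Control line 4 (0.658 against 0.355 CPM, a share of 0.883). Olfr460 in HR males was singled out by HR line 6 (0.155 against 0.311 CPM, 5 reads, a share of 0.876). For Olfr692, for Olfr78 and for Olfr968 in Control line 1, the library of the other sex of that line lay at the same end of its group.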

How the results depend on the processing

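The count of odorant receptors that passed the threshold between HR and Control lines was 0 in 18 alternatives, among them library size alone, no filter on low counts, each sex alone, line sums and limma. It was 1 with DESeq2 and 0 to 1 when each line was left out in turn, where 1 came without HR line 6. In both cases the gene was Olfr920, with a log2 fold change of 2.09 (adjusted p = 0.0297) and 2.39 (adjusted p = 0.0449). Over the lines left out its log2 fold change was 1.94 to 2.39, and without HR line 3, 7 or 8 or in 1 sex alone it was too low in counts to be tested. The sign of 2 further genes changed, to -0.06 in Olfr461 with limma on log2(RPKM + 0.1) and to -0.02 in Olfr78 without HR line 3 (-0.02 to 0.58 over the lines left out). The line test called 9 to 15 of the 29 genes over 14 alternatives. The calls over all genes moved as well. Library size alone called 15 of the 29 genes and 6160 of 17181 genes. DESeq2 called 14 of the 29 genes and 7307 of 17181 genes, and the fit without HR line 7 called 9 and 3638 of 17122.

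With line as a replicate block, 0 of the 29 genes differed between the sexes and 0 showed an interaction, so the pairing changed no call, while the genes that differed between the sexes rose from 31 to 87. The sexes and the interaction had 0 calls among the 29 genes in all 13 alternatives each.

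The set itself depends on the count limit. It had 12 genes with at least 20 reads in 8 libraries, 17 with 10 reads in 12 libraries, 2 with 10 reads in 16 libraries, namely Olfr692 and Olfr78, and 27 with at least 0.25 CPM in 8 libraries. The summed level against the vomeronasal receptors moved from a median of 0.930% to 0.311% without Olfr692 and was 0.606% on raw counts. Most of the 29 genes had medians under 50 reads per library, so small differences were not detectable at this depth.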
